A study of Homo sapiens with 5 samples.

Results

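The SLITRK family comprises 6 genes, SLITRK1 to SLITRK6, which encode single-pass membrane proteins with leucine-rich repeats outside the cell. All 6 were among the 33857 genes listed for H9, a line of human embryonic stem cells, and members were taken by gene symbol. The family was chosen from earlier results of these data because the SLITRK1 count was higher in the edited cells, so the SLITRK1 difference is given as a description with no test. The 5 libraries of poly(A)+ RNA came from 2 mock control and 3 CFIm25-m samples. Mock control samples were H9 clones that received the empty eCRISPR vector. CFIm25-m samples were H9 clones edited by CRISPR/Cas9 with gRNAs against CFIm25, each with a different gRNA placed near the start codon. All clones of both groups were grown in mTeSR medium on Matrigel. The labels call the edited samples knockouts, whereas the authors describe a residual protein with a small N-terminal deletion. The clones thus model reduced and altered CFIm25 rather than its absence. Each sample was 1 clone, and clone-to-clone variation and the edit cannot be fully told apart with so few clones.

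SLITRK proteins sit on the postsynaptic side of neuronal contacts, where their leucine-rich repeats bind LAR-type receptor tyrosine phosphatases on the presynaptic cell and help to organise synapses. Their extracellular part resembles the SLIT axon guidance proteins, and the cytoplasmic tails of several members carry tyrosine motifs related to those of the neurotrophin receptors. SLITRK1 has a short tail and promotes neurite growth, SLITRK3 is known for inhibitory synapses, SLITRK5 for the handling of the neurotrophin receptor TrkB, and SLITRK6 for roles in the eye and inner ear. They are known mainly from the nervous system, and a pluripotent stem cell is not a setting in which a synaptic role is established. CFIm25 is a subunit of the mRNA 3′ processing factor CFIm and binds UGUA elements upstream of poly(A) sites.

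The SLITRK genes lie on 3 chromosomes. In GRCh38, the build of the deposited coordinates, SLITRK1 (ENSG00000178235) was listed on the minus strand at chr13:83877205-83882393, SLITRK6 (ENSG00000184564) on the minus strand at chr13:85792787-85806683, and SLITRK5 (ENSG00000165300) on the plus strand at chr13:87672615-87696272. SLITRK4 (ENSG00000179542) was listed on the minus strand at chrX:143622790-143635777 and SLITRK2 (ENSG00000185985) on the plus strand at chrX:145817832-145829856, with 2.182 Mb between them. SLITRK3 (ENSG00000121871) stood apart on the minus strand at chr3:165186720-165197109. Between SLITRK1 and SLITRK5, 3.79 Mb apart, SLITRK6 was the 1 protein-coding gene listed. No listed gene overlapped a SLITRK gene.

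All 6 genes share an unusual structure. In the longest coding transcript of each in GENCODE (release 44 mapped to GRCh37), the whole coding sequence lies in 1 exon, a property of 6.32% of the 14192 tested genes with an annotated 3′ UTR of at least 100 bases. SLITRK1 is the shortest protein, with 696 codons, and SLITRK3 the longest, with 977. The translated proteins were 41.0% to 53.6% identical over aligned positions in the 15 pairs, with SLITRK2 and SLITRK5 the closest pair. SLITRK1 was 42.8% to 44.6% identical to the others. The 3′ UTRs differed far more, from 1177 bases in SLITRK3 and 2212 in SLITRK1 to 18007 in SLITRK5.

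Since the edited protein binds UGUA, the last UGUA before the annotated transcript end is shown for each gene, read from the same GENCODE transcripts in a window of 30 bases, 5′ to 3′, with the element in capitals and written with T.
SLITRK1: atgttctggaataTGTAttatttattttaa
SLITRK2: aaacaagctcttgTGTAaatagacttctgt
SLITRK3: aatgtttaatcatTGTAtagtgattatgcc
SLITRK4: catcattgtttcaTGTAaactgaaccattg
SLITRK5: tactcctaaagctTGTAataattctttggg
SLITRK6: gaaatatttattcTGTAcagttttatatag
The element began 52 bases before the end in SLITRK1, 44 in SLITRK2, 59 in SLITRK3, 91 in SLITRK4, 49 in SLITRK5 and 101 in SLITRK6. A UGUA in the last 100 bases was thus present in 5 of the 6 genes, compared with 55.5% of the tested genes. Over the whole 3′ UTR, SLITRK1 had the lowest UGUA density of the family, at 4.52 per kilobase, beside a median of 4.95 over the tested genes. SLITRK6 had the highest density, at 11.7 per kilobase, followed by SLITRK3 at 9.35 and SLITRK4 at 9.30. These matches describe letters in an annotated window and are not measured binding sites. SLITRK2 and SLITRK5 had no AATAAA or ATTAAA poly(A) signal in the last 50 bases, whereas 78.9% of the tested genes did. Whether their annotated ends are poly(A) sites was not tested.

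The start regions are shown for SLITRK1, for SLITRK3, which had a similar level in the mock controls, and for SLITRK5, the other tested member on chromosome 13. The windows are RefSeq promoters of GRCh38.p14 from 250 bases before to 50 after the start site, 5′ to 3′ on the gene's strand, with CpG dinucleotides in capitals. They cover chr13:83882344-83882643 (minus) for SLITRK1, chr3:165197060-165197359 (minus) for SLITRK3 and chr13:87672339-87672638 (plus) for SLITRK5.
SLITRK1: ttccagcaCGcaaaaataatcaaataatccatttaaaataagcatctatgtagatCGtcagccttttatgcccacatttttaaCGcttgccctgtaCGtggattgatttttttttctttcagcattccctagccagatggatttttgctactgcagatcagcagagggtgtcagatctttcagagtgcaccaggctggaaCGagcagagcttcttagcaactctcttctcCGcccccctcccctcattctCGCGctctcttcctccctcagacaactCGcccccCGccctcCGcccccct
SLITRK3: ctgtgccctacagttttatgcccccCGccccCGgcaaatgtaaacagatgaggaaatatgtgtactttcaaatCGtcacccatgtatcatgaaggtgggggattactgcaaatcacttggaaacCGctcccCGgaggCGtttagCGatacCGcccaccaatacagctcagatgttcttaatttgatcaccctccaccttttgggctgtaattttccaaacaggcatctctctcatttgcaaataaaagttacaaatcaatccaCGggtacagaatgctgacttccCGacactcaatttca
SLITRK5: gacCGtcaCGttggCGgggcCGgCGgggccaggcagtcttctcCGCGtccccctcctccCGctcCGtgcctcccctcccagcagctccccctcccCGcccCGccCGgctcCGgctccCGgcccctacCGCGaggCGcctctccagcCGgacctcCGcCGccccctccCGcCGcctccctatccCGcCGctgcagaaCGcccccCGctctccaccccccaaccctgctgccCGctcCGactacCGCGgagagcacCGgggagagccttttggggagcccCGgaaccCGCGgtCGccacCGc
The SLITRK1 window held 11 CpGs at 49% GC and the SLITRK3 window 10 at 46%, whereas the SLITRK5 window held 36 at 78%, beside medians of 14 CpGs and 58.67% over all RefSeq promoters. All 6 genes had at least 1 window in the table, 12 in all. Both strands were searched for 5 motifs. A GC box (GGGCGG) was found in 7 of the 12 windows, the 3 shown included, and in 44.95% of all promoters. A CCAAT box (CCAAT) was found in 2, including the SLITRK3 window shown, and in 34.61% of all promoters. The octamer ATGCAAAT, recognised by POU factors, was found in 1 SLITRK5 window and in 1.774% of all promoters. No SLITRK window held a TATA box (TATAAA) or TTCAGCACC, part of the RE1 element of the repressor REST, which were found in 11.53% and 0.3759% of all promoters. Windows of 1 gene can overlap and are not independent.

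Library totals were between 18754108 and 23372391 reads. Values are read counts divided by a size factor per sample, called normalized counts, and log2 fold changes are of the normalized count + 1. No samples held identical values, and pairs of mock controls or of CFIm25-m clones differed by more than 2-fold in 632 to 1331 tested genes. NUDT21, which encodes CFIm25, had normalized counts of 6503 and 6398 in mock control and 4035, 3281 and 3400 in CFIm25-m. Pluripotency markers were abundant in every sample. The summed normalized counts of the 8 genes were 183610 and 186970 in mock control and 163760, 167130 and 160420 in CFIm25-m, so every clone lay below both mock controls. LIN28A and DNMT3B had the highest counts of the 8 and weighed most in this sum, which is not a shared direction. Of the 8 genes, 4 had every clone below both mock controls and 2 had every clone above.

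SLITRK1 was the member that differed most between the groups. Its normalized counts were 76.1 and 95.5 in mock control replicates 1 and 2, and 429, 375 and 240 in CFIm25-m replicates 1, 2 and 3. Every clone lay above both mock controls, and replicate 3 was the lowest of the clones. The underlying reads were 66 and 99 in mock control and 428, 416 and 250 in CFIm25-m, so each value rested on well over the floor of 3 reads. The means were 85.8 ± 13.8 (SD, n = 2) and 348 ± 97.0 (SD, n = 3), a ratio of 4.06, and the log2 fold change was 1.97 (SE 0.24). The clones exceeded the mean of the mock controls by 2.32, 2.12 and 1.49 on the log2 scale, compared with a difference of 0.32 between the mock controls. SLITRK1 ranked at position 39 from the top among the 19232 tested genes by log2 fold change. In bulk RNA, more cells that express SLITRK1 and more RNA per cell cannot be told apart, and the same holds for every gene below.

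**Figure D1:**
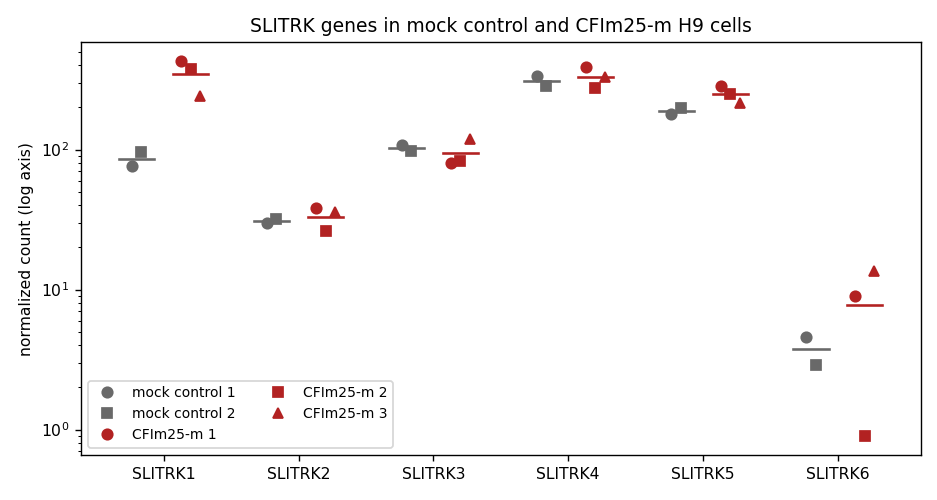
Normalized counts on a log axis for the 6 SLITRK genes, with 1 point per sample, mock control in grey and CFIm25-m in red, and a bar at each group mean. For SLITRK1 the clones at 240 to 429 sit apart from the mock controls at 76.1 and 95.5, for SLITRK5 the groups are close but separate, and for the other genes they overlap.

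SLITRK5 had normalized counts of 181 and 197 in mock control and 284, 248 and 216 in CFIm25-m. All clones again lay above both mock controls, with replicate 3 the lowest clone, but the gap between the groups was small. The means were 189 ± 11.3 (SD, n = 2) and 250 ± 33.6 (SD, n = 3). The log2 fold change was 0.39 (SE 0.16, 95% interval 0.03 to 0.75), and it did not pass the test over all genes (limma, adjusted p = 0.286).

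SLITRK4 was the most abundant member by count in the mock controls, with normalized counts of 335 and 286, and had 392, 276 and 329 in CFIm25-m. The groups overlapped, and the log2 fold change was 0.09 (SE 0.17, 95% interval -0.28 to 0.46, limma, adjusted p = 0.839). SLITRK3 had normalized counts of 107 and 98.4 in mock control and 80.2, 82.8 and 118 in CFIm25-m. Replicate 3 was above both mock controls and the other clones below them, and the log2 fold change was -0.15 (SE 0.23, 95% interval -0.66 to 0.35, limma, adjusted p = 0.787). SLITRK2 had normalized counts of 30.0 and 31.8 in mock control and 38.1, 26.1 and 35.6 in CFIm25-m. Its log2 fold change was 0.09 (SE 0.30, 95% interval -0.58 to 0.76, limma, adjusted p = 0.920), so a change within that interval could not be told from none.

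SLITRK6 was close to the detection limit. It had 4 and 3 reads in mock control and 9, 1 and 14 in CFIm25-m, or normalized counts of 4.61 and 2.90 against 9.02, 0.90 and 13.5. It reached a normalized count of 10 in 1 sample, where 2 were needed, and was therefore the 1 member not tested. The CFIm25-m clones spanned both sides of the mock controls, so no difference was detectable at this depth.

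Of the 5 tested members, SLITRK1 alone was called at an adjusted p below 0.05, beside 1.88% of all tested genes in either direction and 0.941% in the direction of SLITRK1. Since SLITRK1 was picked on this contrast, nothing is read from that count. SLITRK5 also had every clone above both mock controls, an arrangement found for 17.0% of all tested genes, and no SLITRK gene had every clone below, found for 19.8%. SLITRK1 had the same arrangement, from which nothing is read for the same reason.

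**Figure D2:**
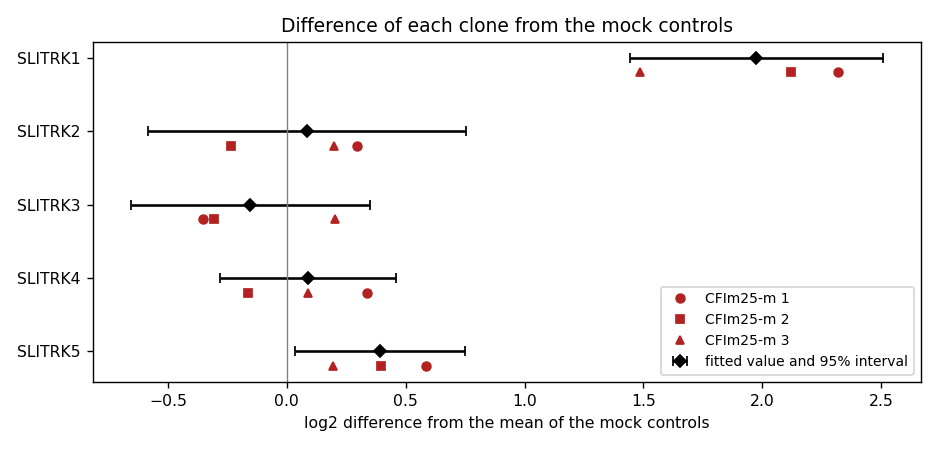
Red symbols give the log2 difference between each CFIm25-m clone and the mock control mean and black diamonds the fitted log2 fold change with its 95% interval for the 5 tested SLITRK genes. The SLITRK1 clones lie at 2.32, 2.12 and 1.49, the SLITRK5 clones closer to 0 at 0.59, 0.39 and 0.20, and the intervals of SLITRK2, SLITRK3 and SLITRK4 include 0.

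To compare levels between the genes, reads were divided by the listed gene length in kilobases and by the library total, which gives the usual RPKM. In mock control the order of mean levels was SLITRK4 at 1.61 ± 0.19, SLITRK3 at 0.971 ± 0.061, SLITRK1 at 0.764 ± 0.121, SLITRK5 at 0.413 ± 0.024, SLITRK2 at 0.120 ± 0.005 and SLITRK6 at 0.0388 ± 0.0126 RPKM (SD, n = 2). Both mock controls gave this order, and no neighbours in it overlapped. In CFIm25-m the order was SLITRK1 at 3.24 ± 0.85, SLITRK4 at 1.81 ± 0.32, SLITRK3 at 0.932 ± 0.235, SLITRK5 at 0.572 ± 0.069, SLITRK2 at 0.136 ± 0.027 and SLITRK6 at 0.0854 ± 0.0708 RPKM (SD, n = 3). SLITRK1 was first in every clone, and SLITRK2 and SLITRK6 overlapped and changed places in replicate 3. Summed over the family, levels were 3.99 and 3.84 RPKM in mock control and 7.78, 6.38 and 6.15 RPKM in CFIm25-m. The SLITRK1 share of this sum was 17.0% and 22.1% in mock control, against 51.1%, 53.7% and 37.5% in CFIm25-m. Without SLITRK1, the summed normalized counts of the family overlapped between the groups, with 658 and 616 in mock control and 803, 635 and 713 in CFIm25-m.

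The order across genes depended on the length used. The listed lengths run from 4474 bases for SLITRK6 to 21103 for SLITRK5, much of the latter 3′ UTR. With the shortest GENCODE transcript that holds the whole coding sequence, 5075 bases for SLITRK5 and 3357 for SLITRK4, SLITRK4 was first in both groups, at 4.27 RPKM in mock control and 4.8 in CFIm25-m. On that scale SLITRK1 was at 0.821 RPKM in mock control, below SLITRK5 at 1.72 and SLITRK3 at 1.08, and at 3.48 in CFIm25-m, above SLITRK5 at 2.38 and SLITRK3 at 1.04. With these shorter lengths SLITRK1 thus moved above SLITRK3 and SLITRK5 in the mean of the clones but stayed below SLITRK4. The reads were not recounted over the shorter transcripts, so the order of SLITRK1 and SLITRK4 in CFIm25-m was not settled.

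**Figure D3:**
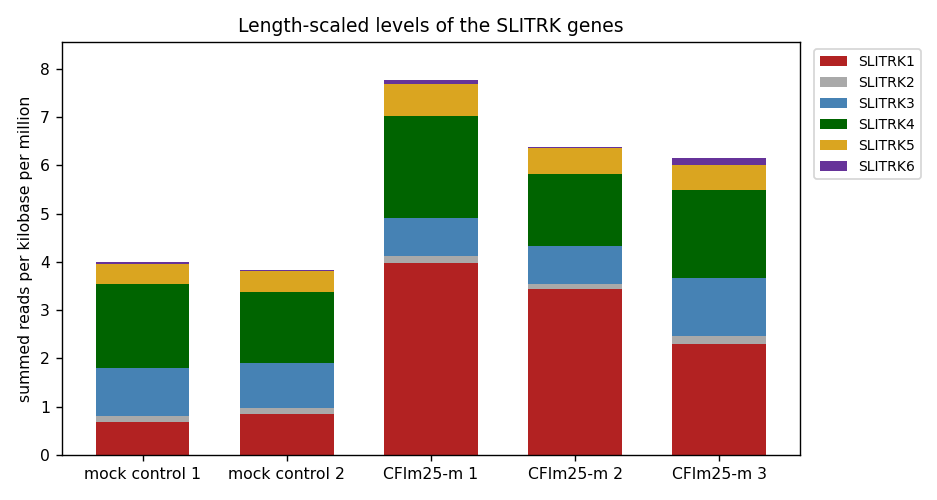
Reads scaled to listed gene length and library total (RPKM), stacked over the 6 SLITRK genes for each sample. The total is 3.99 and 3.84 in the mock controls and 6.15 to 7.78 in the CFIm25-m clones, and the SLITRK1 segment (red, at the base) accounts for most of the difference.

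The partners and relatives of the SLITRK proteins were examined as lists. Over all tested genes 1.88% were called, so nothing is read from a short list without a call. The LAR-type phosphatases bound by SLITRK proteins were well expressed. PTPRF had normalized counts of 11005 and 11169 in mock control and 10853, 11268 and 10071 in CFIm25-m, and PTPRS had 8175 and 8530 against 7824, 7976 and 8214. PTPRD, the other gene on the list, had 1394 and 1371 against 1582, 1529 and 1398. None of the 3 was called, and their median log2 fold change was -0.05, beside -0.01 over all tested genes. The summed normalized count of the 3 was 20574 and 21070 in mock control and 20259, 20772 and 19683 in CFIm25-m. Of the other postsynaptic ligands of these phosphatases, 9 of 10 were tested and none was called, with a median of 0.16. They include LRRC4B, a synaptic adhesion protein, at 554 and 594 in mock control and 357, 545 and 298 in CFIm25-m (log2 fold change -0.57, limma, adjusted p = 0.249), and LRFN4 at 1245 and 1379 against 1069, 1248 and 1207. LRRC4B had every clone below both mock controls and was called without CFIm25-m replicate 2 (limma, adjusted p = 0.0433). NTRK3, IL1RAPL2 and IL1RAP had every clone above both mock controls, so 3 of the 9 tested genes did, beside 17.0% of all tested genes. LRRC4B was the 1 gene of the list with every clone below, beside 19.8%. IL1RAP, an accessory chain of the interleukin-1 receptor, had 131 and 138 in mock control and 204, 233 and 215 in CFIm25-m (log2 fold change 0.69, limma, adjusted p = 0.0569, and 0.0262 without CFIm25-m replicate 3), and IL1RAPL2 had 4.61 and 5.79 against 25.1, 16.2 and 11.5 (log2 fold change 1.53, limma, adjusted p = 0.153).

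Of 26 other leucine-rich repeat adhesion and receptor genes, 18 were tested, 1 was lower and none was higher, beside 1.88% of all tested genes called, with a median of -0.04. The gene that was lower was LINGO1, a brain receptor component that restrains axon growth and myelination. Its normalized counts were 2691 and 2826 in mock control and 2033, 2025 and 1930 in CFIm25-m, with no overlap (log2 fold change -0.47, limma, adjusted p = 0.0291). LRRN1, at 7228 and 7305 in mock control and 7474, 7344 and 6550 in CFIm25-m, and ELFN1, at 363 and 338 against 264, 299 and 240, were not called. LRRN2 had 65.7 and 67.6 in mock control and 106, 136 and 147 in CFIm25-m (log2 fold change 0.94, limma, adjusted p = 0.0569). In this list 4 tested genes had every clone above both mock controls and 6 had every clone below, beside 17.0% and 19.8% of all tested genes. Of 10 neurexin, neuroligin and cerebellin genes, 8 were tested, 1 was higher and none was lower, beside the same 1.88%, with a median of 0.10. The gene that was higher was NLGN4X, a postsynaptic neuroligin, at 4646 and 4589 in mock control and 6283, 6133 and 6043 in CFIm25-m (log2 fold change 0.41, limma, adjusted p = 0.0438). NLGN2, the neuroligin of inhibitory synapses, had 3391 and 3620 against 3267, 3431 and 4399, and NLGN3 had 392 and 433 against 324, 560 and 325, and neither was called. The calls of LINGO1 and NLGN4X were both lost without mock control replicate 1 or 2 or CFIm25-m replicate 1 or 2, with adjusted p up to 0.479 and 0.563. The 22 synaptic scaffold and vesicle genes were all tested and none was called, beside the same 1.88%, with a median of -0.08. Among them 7 had every clone below both mock controls and 2 every clone above, beside 19.8% and 17.0% of all tested genes. DLG3 had 2099 and 2018 in mock control and 1837, 1743 and 1662 in CFIm25-m, and HOMER1 had 1331 and 1339 against 1353, 1192 and 1026.

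Neuron markers moved in both directions. Of 11 neuron markers, all tested, MAP2, a microtubule protein of dendrites, was higher and DCX, a microtubule protein of migrating neurons, was lower, so 2 of 11 were called beside 1.88% of all tested genes. MAP2 had normalized counts of 98.0 and 93.6 in mock control and 491, 504 and 207 in CFIm25-m (log2 fold change 1.94, limma, adjusted p = 0.0190). DCX had 282 and 273 in mock control and 124, 135 and 118 in CFIm25-m (log2 fold change -1.14, limma, adjusted p = 0.00640). The call of MAP2 was lost without mock control replicate 1 or 2 or CFIm25-m replicate 1 or 2, with adjusted p up to 0.117, and that of DCX without mock control replicate 1 or 2, with adjusted p up to 0.118. INA, a neuronal intermediate filament, had 458 and 543 against 450, 534 and 370, and GAP43, a growth cone protein, had 300 and 318 against 356, 339 and 350. ELAVL4, a neuronal RNA-binding protein, had 17.3 and 11.6 against 43.1, 33.3 and 77.9 (log2 fold change 1.70, limma, adjusted p = 0.0680). STMN2, a neuronal microtubule regulator, had 5.76 and 2.90 against 12.0, 11.7 and 22.1 (log2 fold change 1.61, limma, adjusted p = 0.162). For both every clone lay above both mock controls, but STMN2 rested on 5 and 3 reads in mock control, near the floor of 3. TUBB3 and ELAVL3 had every clone below both mock controls. TUBB3 had 32.3 and 38.6 against 17.0, 24.3 and 26.9 (log2 fold change -0.64, limma, adjusted p = 0.400). ELAVL3 had 112 and 85.9 against 62.1, 67.5 and 80.8 (log2 fold change -0.49, limma, adjusted p = 0.351). In the whole list 5 of 11 genes had every clone above both mock controls, beside 17.0% of all tested genes, and 3 had every clone below, beside 19.8%. The median log2 fold change was 0.02, and the summed level was 2306 to 2444 in mock control and 2422 to 2699 in CFIm25-m. No neuron marker was at 0 in both mock controls. The part of neuron-like cells in the SLITRK1 level was not tested.

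Of 8 neural progenitor markers 4 were tested and none was called. NES, an intermediate filament of neural progenitors that stem cells also express, had 12428 and 13158 in mock control and 12957, 11702 and 10474 in CFIm25-m, and OTX2 had 807 and 785 against 1166, 1033 and 511, with replicate 3 on the other side of the mock controls. PAX6, a defining marker of neural progenitors, had 3.46 and 3.86 in mock control and 6.01, 9.0 and 5.77 in CFIm25-m, and LHX2 had 0 and 0.965 against 8.02, 7.20 and 1.92. Both were too low to be tested, and for both every clone lay above both mock controls. SOX1 went the other way, at 18.4 and 20.3 in mock control and 11.0, 14.4 and 4.81 in CFIm25-m (log2 fold change -0.99, limma, adjusted p = 0.376). It was the 1 tested gene of this list with every clone below both mock controls, and none had every clone above. Over all tested genes these shares were 19.8% and 17.0%. Of 4 neural crest markers 3 were tested and none was called, with SOX10 at 131 and 134 against 91.2, 104 and 94.3 and FOXD3 at 486 and 506 against 505, 571 and 542. None of the 8 pluripotency markers was called, beside 1.88% of all tested genes, and their median was -0.26. NANOG, LIN28A, DNMT3B and SALL4 had every clone below both mock controls, found for 19.8% of all tested genes. POU5F1 and TDGF1 had every clone above, found for 17.0%. SALL4 had 6340 and 6273 in mock control and 4918, 4890 and 5076 in CFIm25-m (log2 fold change -0.35, limma, adjusted p = 0.0854). POU5F1 had 30200 and 31427 in mock control and 34789, 38899 and 33173 in CFIm25-m, and LIN28A had 56271 and 56659 against 48004, 47650 and 33716. Leaving out CFIm25-m replicate 3 gave the most called genes of all fits that dropped 1 sample. In that fit OTX2 (limma, adjusted p = 0.0146), POU5F1 (adjusted p = 0.0374), LIN28A (adjusted p = 0.0133), DNMT3B (adjusted p = 0.00116) and SALL4 (adjusted p = 0.00390) were called. None of them was called with all samples and the main settings. Among 9 mesoderm and endoderm markers 1 was tested, MIXL1, at 8.07 and 20.3 in mock control and 11.0, 13.5 and 29.8 in CFIm25-m, and the summed level of the list was 31.1 to 42.5 in mock control and 28.8 to 47.1 in CFIm25-m.

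**Figure D4:**
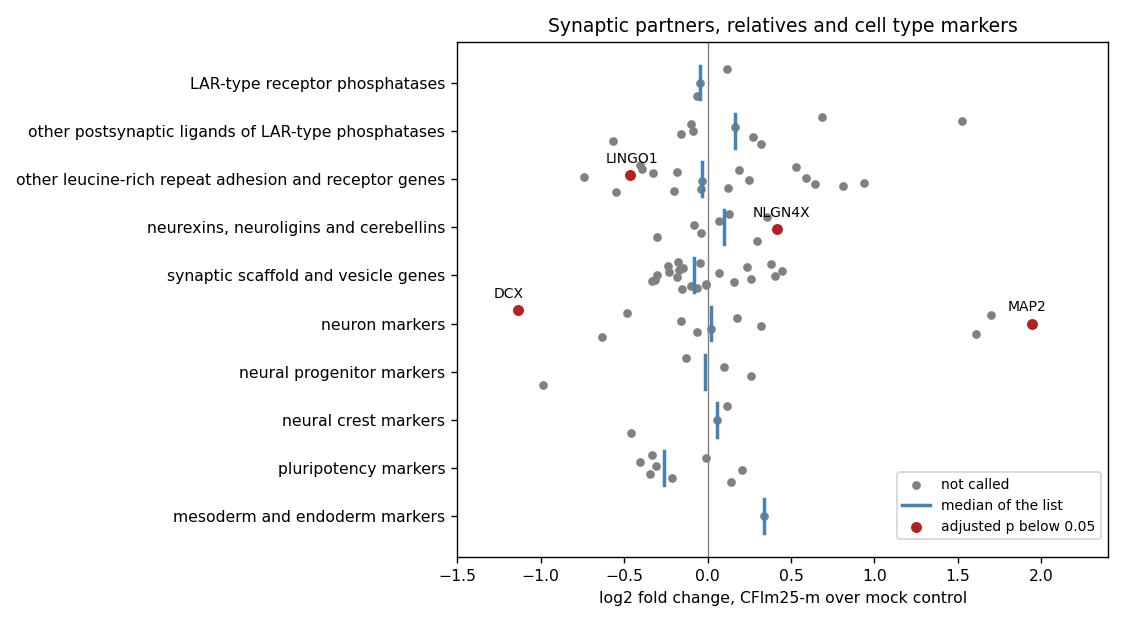
Log2 fold change of CFIm25-m over mock control for each tested gene of the 10 lists, with genes at an adjusted p below 0.05 in red and the median of each list as a blue line. LINGO1, NLGN4X, DCX and MAP2 are the called genes, and the list medians lie between -0.26 and 0.34.

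The genes around the SLITRK loci were then examined. SLITRK1 lies in a gene-poor stretch, with no listed gene within 1 Mb. Within 5 Mb, 15 genes were listed and 7 tested, and their median log2 fold change was -0.11. None of them was called, beside 1.88% of all tested genes. Near SLITRK5, 10 genes were listed within 5 Mb and 3 tested, and near SLITRK6, 10 were listed and 4 tested, with SLITRK1 itself the 1 called gene in both cases. AL354994.1, a lincRNA 254 kb from SLITRK6, had 9 and 1 reads in mock control and 11, 11 and 8 in CFIm25-m, and the groups overlapped (limma, adjusted p = 0.482). On the X chromosome, 18 tested genes within 5 Mb of SLITRK2 gave no call, beside 1.88% of all tested genes called. The processed pseudogene Z97180.1, 790 kb from SLITRK2, had normalized counts of 39.2 and 49.2 in mock control and 20.0, 35.1 and 30.8 in CFIm25-m (limma, adjusted p = 0.396), and such copies can share reads with their parent gene. BCHE, the butyrylcholinesterase gene 576 kb from SLITRK3, had 38.0 and 62.7 in mock control and 129, 77.4 and 175 in CFIm25-m, and its log2 fold change of 1.29 missed the threshold (limma, adjusted p = 0.106).

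The called genes within 5 Mb of SLITRK3 and SLITRK4 were picked once their values had been seen. Of 27 tested genes near SLITRK3, 2 were higher, beside 0.941% of all tested genes. SERPINI1, the neuronal protease inhibitor neuroserpin, had 72.6 and 107 in mock control and 256, 209 and 167 in CFIm25-m (log2 fold change 1.22, limma, adjusted p = 0.0300). The pseudogene EGFEM1P had 9.22 and 12.5 in mock control and 60.1, 45.0 and 55.8 in CFIm25-m (log2 fold change 2.21, limma, adjusted p = 0.00736). Of 14 tested genes near SLITRK4, 1 was higher and 1 lower, beside 1.88% of all tested genes called in either direction. SOX3, a SOX factor of neural progenitors, had 343 and 424 in mock control and 1151, 1385 and 624 in CFIm25-m (log2 fold change 1.39, limma, adjusted p = 0.0354). FGF13, an intracellular regulator of sodium channels, had 1532 and 1634 in mock control and 923, 1114 and 904 in CFIm25-m (log2 fold change -0.70, limma, adjusted p = 0.0157). FGF13 overlaps its antisense gene FGF13-AS1, and without a stated strand setting the reads of such a pair may be mixed. The call of SERPINI1 was lost without mock control replicate 1 or CFIm25-m replicate 1 or 2 (adjusted p up to 0.301), that of EGFEM1P without mock control replicate 1 or CFIm25-m replicate 1 (up to 0.0740), that of SOX3 without mock control replicate 1 or 2 or CFIm25-m replicate 1 or 2 (up to 0.181), and that of FGF13 without mock control replicate 1 or 2 or CFIm25-m replicate 1 (up to 0.209).

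The profiles most like that of SLITRK1 were sought among the 327 tested genes with a mean normalized count of at least 100 and an SD of at least 0.5 on the log2 scale. Likeness was Pearson's r of log2(normalized count + 1) over the 5 samples, and 54 of these genes had r above 0.9. The samples fall into 2 groups, so a high r mainly says that a gene separates the groups. NNAT, the imprinted membrane protein neuronatin, came first with r = 0.997. It had normalized counts of 135 and 165 in mock control and 529, 481 and 304 in CFIm25-m. NMU, the neuropeptide neuromedin U, also had r = 0.997, with 166 and 186 against 397, 403 and 311. PDE3A, a cyclic nucleotide phosphodiesterase, had r = 0.997, with 159 and 170 against 352, 319 and 278. P3H2, a collagen prolyl hydroxylase, had r = 0.994, with 242 and 262 against 545, 572 and 418. STC1, the glycoprotein hormone stanniocalcin-1, had r = 0.993, with 523 and 561 against 2087, 1625 and 1127. As in SLITRK1, replicate 3 was the lowest clone for all 5, and every clone lay above both mock controls.

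**Figure D5:**
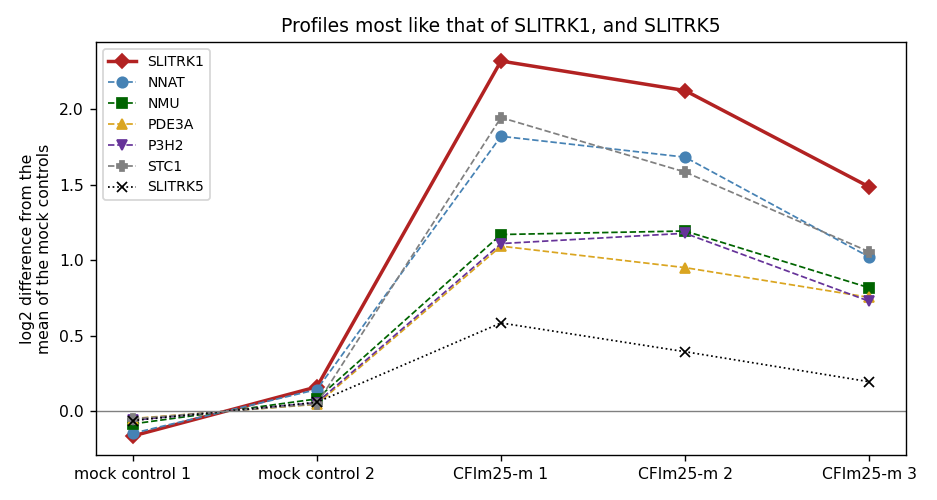
Log2 difference from the mean of the mock controls for SLITRK1, the 5 genes with the most similar profile, and SLITRK5, in each sample. Replicate 3 is the lowest of the clones for all 7 genes, and SLITRK1 lies above the other 6 in every clone, at 2.32, 2.12 and 1.49.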

How the data were processed

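Poly(A)+ RNA was selected with oligo(dT), and paired-end libraries were sequenced on a NovaSeq. The authors deposited a normalized count (signal) for each gene and sample, made by dividing read counts by size factors. The submitters' processing notes name hg38, HISAT2, featureCounts, Subread and DESeq2. A strand setting is not given in the sources used here. The authors' group means, log2 fold changes and p-values are in the same table and were not used. Samples were grouped by title. Dividing by the value of 1 read gave whole reads for 100% of values within 0.01 read. Limma 3.58.1 (R 4.3.3, mean-variance trend) was run on log2(normalized count + 1) for the 19232 genes with at least 10 in at least 2 samples, with Benjamini-Hochberg adjustment over all of them at 0.05. Fold changes of low genes are understated by the pseudocount. EdgeR 4.0.16 and DESeq2 1.42.0 were run on recovered reads as alternatives, beside other pseudocounts (0.1 and 5), no filter, TMM factors, no trend, a replicate block and fits that left out 1 sample each. Scripts were tested on simulated data. P-values of the limma fit rest on the spread between clones, with the variance of each gene drawn towards a trend over all tested genes. Read floors cover counting error only.

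The members, lists and tests were chosen with earlier results of these data known. Named genes were the SLITRK genes, called list genes (up to 6 per list) and up to 2 other genes per list with the highest level per kilobase, tested genes within 1 Mb of a SLITRK gene, and the 5 genes most like SLITRK1, which was also the member with the highest RPKM in the mean over all 5 samples at the listed length. PTPRD, LRRN2, PAX6, LHX2, SOX1, NUDT21, ELAVL4, STMN2, TUBB3, ELAVL3, NTRK3, IL1RAP, IL1RAPL2, NANOG, DNMT3B, SALL4, TDGF1 and the genes called at 1 to 5 Mb were named after their values were seen. Not listed were AMIGO3 and HAND1. The alternative gene lengths were chosen after seeing the data. Promoters were matched by symbol for 6 of 6 genes. The reference genome at hand was GRCh37, so no sequence was read by coordinate.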

Additional observations from a re-analysis of the deposited data

How the results depend on the processing

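SLITRK1 was chosen on this contrast, so its values under the 13 alternatives are a description. Limma without a mean-variance trend called 0 SLITRK genes, and 21 genes higher and 25 lower in all, and 14 of the 15 named genes that were called lost their call, all but EGFEM1P. In fits that left out a sample, the number of called genes ranged from 31 to 520 higher and from 33 to 524 lower, with the lowest counts without a mock control and the highest without CFIm25-m replicate 3. The log2 fold change of SLITRK1 then ranged from 1.80 to 2.22, and that of SLITRK5 from 0.30 to 0.49. In those fits a group left with 1 sample is assumed to vary like the other group. DESeq2 called 349 genes higher and 279 lower. The cause of these differences was not tested.

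Replicate numbers shared by the groups name different clones, and the differences between replicates 1 and 2 of each group had a correlation of 0.0159 across genes, so they were not treated as pairs. With a replicate block, 1043 genes were called higher and 1064 lower, and 2 SLITRK genes were called, SLITRK1 and SLITRK5, the latter with a log2 fold change of 0.49 (limma, adjusted p = 0.0201). LRRC4B, IL1RAP, IL1RAPL2, ELAVL4, OTX2, POU5F1, LIN28A, NANOG, DNMT3B, SALL4 and BCHE also gained a call with the block. With 5 samples the block leaves very little information on the residual spread of each gene, and it joins unrelated clones. Nothing is read from the calls it added. CFIm25-m replicate 3 has no partner in this fit, so its estimates equal those without that replicate.

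The genes whose sign turned were not called with all samples and the main settings. With the replicate block LRRN1 was at 0.028, NLGN2 at -0.065, NLGN3 at 0.047 and MIXL1 at -0.072. In fits without 1 sample, SLITRK4 ranged from -0.038 to 0.21, SLITRK2 from -0.018 to 0.25, LRRN1 from -0.067 to 0.028, NLGN2 from -0.065 to 0.15, NLGN3 from -0.34 to 0.050, OTX2 from -0.13 to 0.46, MIXL1 from -0.28 to 0.95 and AL354994.1 from -0.12 to 1.28. NUDT21 lost its call without mock control replicate 1 or 2 (adjusted p up to 0.0618). Both pseudocounts, TMM factors and edgeR changed no call or sign among the 51 genes compared. No filter lost the call of NLGN4X (limma, adjusted p = 0.0602), and DESeq2 added BCHE (adjusted p = 0.0158), IL1RAP (0.0239), ELAVL4 (0.0185) and SALL4 (0.0208).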
